A study of Mus musculus with 12 samples.

Results

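The genes described here are a module of 46 cell cycle and DNA replication genes, 15 that act in S phase and 31 that act in mitosis or on the way into it. They were taken by symbol from the probe sets of the array that carry a single gene symbol, and a gene with several probe sets was represented by the one with the highest mean of the normalized log2 values over the 12 arrays. A probe set was found for 45 of the 46 genes, among 18193 genes with a probe set in all. The exception, the mitotic cyclin gene Ccnb1, was not analysed here. All 45 passed the filter on low signal, as did 12755 genes of the whole series.

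The module was followed in total RNA of whole liver from BALB/c mice in a study of acute autoimmune hepatitis, with 4 groups of 3 mice and 1 array per mouse. Wild type mice keep both the Tgfb1 gene of the cytokine TGF-beta1 and the Ifng gene of interferon gamma, and the series design calls the Tgfb1-intact controls littermates. TGFB KO mice lack Tgfb1. The mice labelled IFNko TGFB+ (spelled INFko in their own labels) lack Ifng and keep Tgfb1, in a number of copies that the labels do not state, and the IFNko TGFB1 KO mice lack both genes. The sources used here give no ages, sexes or designs of the deletions. The arrays thus address the effect of Tgfb1 loss with Ifng present and with Ifng absent.

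Mean Tgfb1 signal was 319 ± 184 for wild type, 68.1 ± 21.2 for TGFB KO, 188 ± 29.5 for IFNko TGFB+ and 40.2 ± 13.9 for IFNko TGFB1 KO (SD, n = 3 each). It was 391, 455 and 109.98 on the wild type arrays, 71.2, 87.6 and 45.5 in TGFB KO, 221, 163 and 180.2 in IFNko TGFB+ and 24.9, 52.1 and 43.8 in IFNko TGFB1 KO, so the low arrays are those labelled knockout. The Ifng probe set gave 23.3, 25.9 and 5.95 among wild type mice, 85.9, 94.3 and 202 among TGFB KO mice, 7.56, 1.06 and 7.45 among IFNko TGFB+ mice and 83.9, 54.3 and 44.6 among IFNko TGFB1 KO mice. Arrays labelled IFNko TGFB1 KO therefore carried more Ifng signal than wild type arrays. The sources used here do not say whether this probe set lies within the altered part of the gene, so it does not check the label, and every direction below follows the labels as given. Each array had been scaled to a trimmed mean near 150 before deposit, and 11 of the 12 arrays had median signals between 33.8 and 42.6. The remaining array, replicate 1 of IFNko TGFB1 KO, had a median of 61.3, and its rank correlations with the others were 0.754 to 0.809 where those others had 0.816 to 0.912 between themselves. Reading sex from Xist and Eif2s3y gave 2 males and 1 female in every group. Signals are given as deposited, and differences are on the scale of log2(signal + 16) after quantile normalization, which understates the change of dim genes.

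As background, a cell that leaves rest first loads the MCM helicase onto replication origins with the help of Cdc6, then raises its supply of nucleotides and copies its DNA around the sliding clamp Pcna. Entry into mitosis follows when cyclin-dependent kinase activity rises. A checkpoint then holds the anaphase-promoting complex until the chromosomes are attached to the spindle, and cytokinesis separates the daughters. Most hepatocytes of an adult liver rest outside the cycle and can re-enter it after injury, those of a growing young liver still divide, and lymphocytes and macrophages divide when they are stimulated. S phase genes are controlled largely by E2F factors, and mitotic genes by the MuvB complexes with B-Myb and Foxm1, which act through a short promoter element called CHR and through CCAAT boxes bound by NF-Y. RNA of whole tissue cannot tell a larger number of cycling cells from more of these RNAs per cell.

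The module was high in the livers lacking both genes and at about the wild type level in the other 3 groups. Against the wild type mean, the median over the 30 mitosis genes was 1.07, 1.07 and 1.04 log2 units on the 3 IFNko TGFB1 KO arrays. On the TGFB KO arrays it was 0.10, 0.33 and -0.01, on the IFNko TGFB+ arrays 0.14, 0.15 and 0.09, and on the wild type arrays themselves -0.22, -0.02 and 0.22. The median over the 15 S phase genes was 0.56, 0.74 and 0.40 on the IFNko TGFB1 KO arrays and between -0.18 and 0.15 on the other 9. For both sets all 3 IFNko TGFB1 KO arrays thus lay above every other array. The mitosis median exceeded the S phase median by 0.50, 0.32 and 0.64 on these 3 arrays, by 0.15, 0.35 and 0.15 on the TGFB KO arrays, and by -0.17 to 0.28 on the other 6, so a higher mitosis median was not particular to IFNko TGFB1 KO. Gene by gene, the 3 IFNko TGFB1 KO arrays exceeded all 9 others for 34 of the 45 genes, namely 8 of 15 S phase genes and 26 of 30 mitosis genes. Among all genes tested, 5.6% did so (714 of 12755). The S phase genes outside this count were Ccne1, Ccne2, Cdc6, Mcm2, Tyms, Tk1 and E2f1, and the mitosis genes were Kif4, Foxm1, Ndc80 and Ect2. The 45 genes lie on 18 chromosomes, with at most 8 on any chromosome (chromosome 2).

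**Figure D1:**
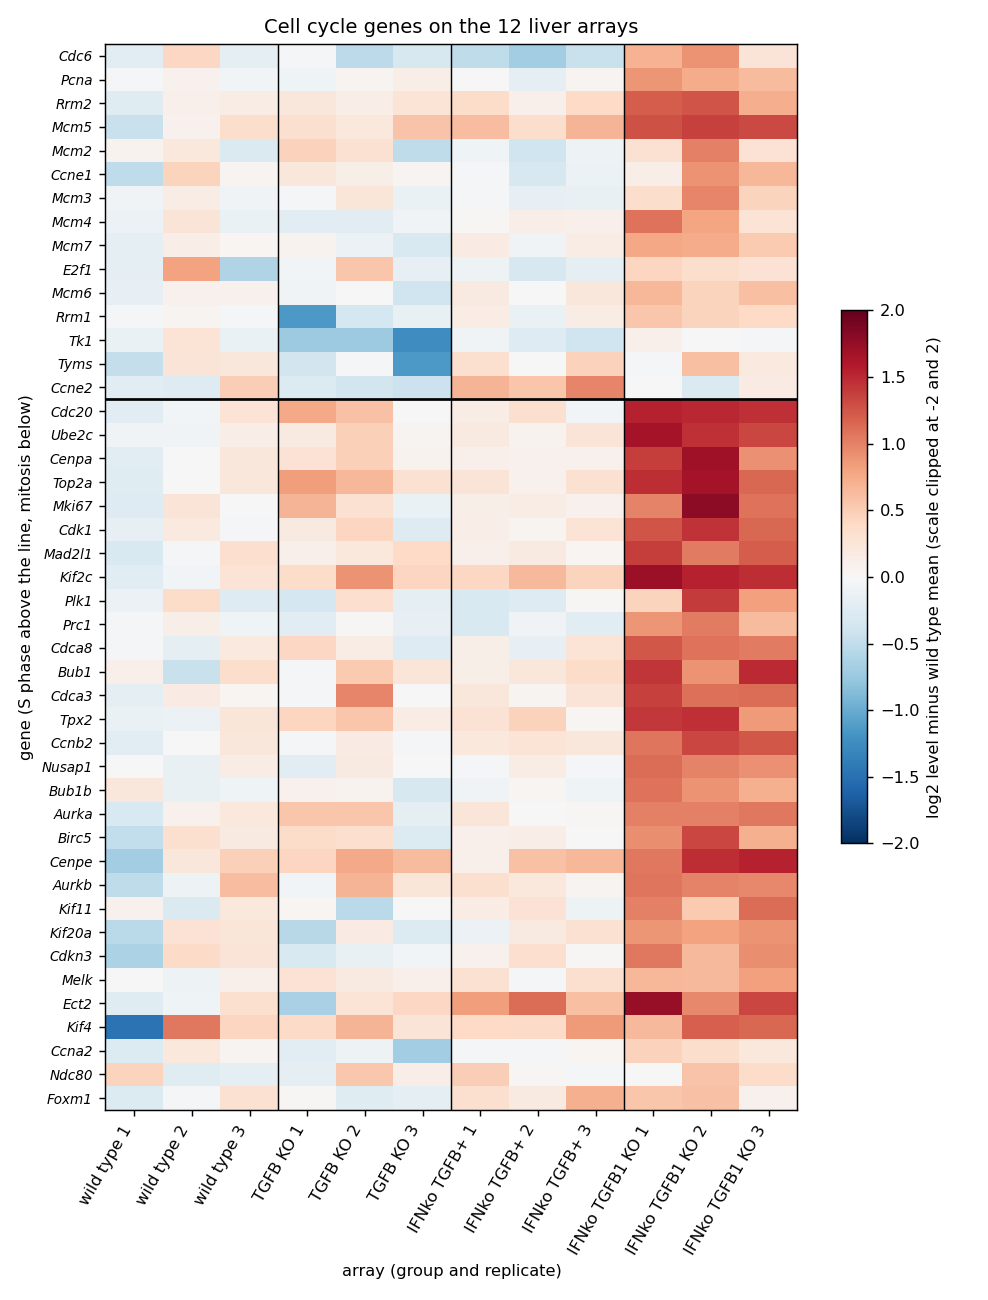
Level of each of the 45 genes on each of the 12 arrays, as the log2 difference from the wild type mean (colour, limited to between -2 and 2). Rows are genes, with S phase genes above the line, and columns are arrays by group. The 3 IFNko TGFB1 KO columns are red over most rows, and exceed all 9 other arrays for 34 genes.

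Promoter sequence was examined because most of the module was high on the same 3 arrays. RefSeq windows (build GRCm38.p6) of 300 bases, from 250 before to 50 after the start of the gene, were matched for 13 of the 15 S phase genes and 26 of the 31 mitosis genes, Ccnb1 included. The CHR element was searched as TTTGAA or TTCGAA, the CCAAT box as CCAAT, and the E2F site as TTCCCGC with the variants TTCGCGC and TTGCCGC besides the form TTGGCGC, each on both strands; no motif contains another, but matches can share bases. CHR was found in 20 of 26 mitosis genes (76.9%), 2 of 13 S phase genes (15.4%) and 19.4% of all 27025 windows. Within 50 bases of the start it was found in 17 of 26 mitosis genes (65.4%), 0 of 13 S phase genes and 5.29% of all windows. CCAAT was found in 20 of 26 mitosis genes (76.9%), 8 of 13 S phase genes (61.5%) and 37.9% of all windows. The E2F site was found in 7 of 13 S phase genes (53.8%), 4 of 26 mitosis genes (15.4%) and 9.69% of all windows. A match describes these letters only, and no binding was measured.

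The promoters of 4 genes are shown for this contrast, the 2 S phase and the 2 mitosis genes with the smallest p in the comparison of IFNko TGFB1 KO with IFNko TGFB+. Each runs 5′ to 3′ along the gene's strand from 250 bases before the start to 10 after it, with CHR, CCAAT and E2F matches in capitals. Pcna (the replication clamp) is at chr2:132253171-132253430 on the minus strand, Cdc6 (the helicase loader) at chr11:98907901-98908160 on the plus strand, Ube2c (the ubiquitin-conjugating enzyme of the anaphase-promoting complex) at chr2:164769679-164769938 on the plus strand and Prc1 (a cross-linker of the midzone microtubules in cytokinesis) at chr7:80294201-80294460 on the plus strand.
Pcna: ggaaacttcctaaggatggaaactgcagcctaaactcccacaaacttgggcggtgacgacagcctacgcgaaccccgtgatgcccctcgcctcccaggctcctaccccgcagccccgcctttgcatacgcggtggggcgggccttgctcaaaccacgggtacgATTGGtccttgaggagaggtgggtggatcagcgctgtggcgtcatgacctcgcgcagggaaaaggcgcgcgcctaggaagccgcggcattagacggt
Cdc6: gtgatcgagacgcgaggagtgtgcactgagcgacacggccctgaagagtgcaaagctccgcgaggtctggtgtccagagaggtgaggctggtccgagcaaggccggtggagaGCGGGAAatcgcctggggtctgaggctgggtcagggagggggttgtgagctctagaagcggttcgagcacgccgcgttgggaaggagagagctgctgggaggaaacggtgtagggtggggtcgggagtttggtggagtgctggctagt
Ube2c: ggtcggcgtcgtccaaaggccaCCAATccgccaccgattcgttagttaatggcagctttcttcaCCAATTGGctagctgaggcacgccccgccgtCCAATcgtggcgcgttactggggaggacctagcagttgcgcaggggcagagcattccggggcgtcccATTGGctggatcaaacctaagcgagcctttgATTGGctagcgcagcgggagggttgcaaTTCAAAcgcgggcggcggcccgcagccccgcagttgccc
Prc1: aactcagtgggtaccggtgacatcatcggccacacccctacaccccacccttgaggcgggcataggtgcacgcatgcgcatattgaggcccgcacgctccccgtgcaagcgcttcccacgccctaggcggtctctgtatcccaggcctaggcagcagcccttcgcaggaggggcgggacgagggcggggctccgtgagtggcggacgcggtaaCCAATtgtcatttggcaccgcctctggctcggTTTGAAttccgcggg
In these windows Pcna holds a single CCAAT box (ATTGG on this strand) and Cdc6 a single E2F site (GCGGGAA on this strand). Ube2c holds 6 CCAAT boxes, 2 of which overlap in CCAATTGG, and a CHR read as TTCAAA, 29 bases before the start. Prc1 holds 1 CCAAT box and a CHR read as TTTGAA, 5 bases before the start. Nusap1, Mad2l1, Birc5, Cenpe and Melk have no CHR in the window and rose in the comparison that follows, and Kif4, Ndc80, Ect2 and Cdkn3 hold CHR and did not pass its test.

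The first comparison, of IFNko TGFB1 KO with IFNko TGFB+ mice, gives the effect of losing Tgfb1 where Ifng is absent. Of the 45 genes, 31 rose and 1 fell at an adjusted p under 0.05 (limma with Benjamini-Hochberg adjustment over 12755 genes). Over all genes tested, 12.7% rose and 13.1% fell. The 31 comprise 24 of 30 mitosis genes, with none lower, and 7 of 15 S phase genes, with Ccne2 lower. The median log2 fold change was 0.98 for mitosis genes, 0.63 for S phase genes and -0.01 for all genes tested. Arrays of the 2 groups did not overlap for 39 genes in the upward direction and 1 in the downward direction, where 22.2% and 23.3% of all genes did the same.

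Ube2c, the enzyme that hands ubiquitin to mitotic cyclins and securin through the anaphase-promoting complex, had the smallest p of the module. Its signal was 786, 788 and 941 on the wild type arrays, 938, 1162 and 867 on those of TGFB KO, 963, 891 and 1018 on those of IFNko TGFB+ and 2145, 2074 and 2102 on those of IFNko TGFB1 KO. The last 3 values lie together, well above the other 9. The fold change against IFNko TGFB+ was 1.31 ± 0.17 in log2 (2.48-fold, limma adjusted p = 0.000295). Cdc20, which activates that complex, had the largest change. Its signal was 513, 584 and 749 among wild type mice, 1031, 931 and 622 among TGFB KO mice, 679, 778 and 591 among IFNko TGFB+ mice and 1531, 1608 and 1701 among IFNko TGFB1 KO mice. The TGFB KO values spread widely, and the IFNko TGFB1 KO values are the 3 highest. The log2 fold change was 1.37 ± 0.21 (2.58-fold, limma adjusted p = 0.000978).

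Among the genes that drive entry into mitosis, Cdk1 encodes the mitotic cyclin-dependent kinase. It gave 489.6, 645 and 550.3 on the wild type arrays, 645, 765 and 469 on those of TGFB KO, 614, 591 and 697 on those of IFNko TGFB+ and 1152, 1434 and 1267 on those of IFNko TGFB1 KO. The lowest IFNko TGFB1 KO array was above the highest of the rest, a TGFB KO array. Cdk1 rose by 1.13 ± 0.20 (limma adjusted p = 0.00185) and its cyclin gene Ccnb2 by 0.98 ± 0.16 (0.00140). Plk1, a kinase of mitotic entry and spindle assembly, rose by 1.06 ± 0.27 (0.0143), and Cdca3, a trigger of mitotic entry, by 1.02 ± 0.25 (0.0114). Ccna2, the cyclin of S phase and early mitosis, did not pass with the probe set used (0.36 ± 0.19, adjusted p = 0.204), and its other probe set rose by 0.72 (0.0436 in a fit of all probe sets). Nor did Cdkn3, a phosphatase that acts on cyclin-dependent kinases, which lay just outside the threshold (0.72 ± 0.25, adjusted p = 0.0525). For Foxm1, the transcription factor of mitotic genes, the value depended on the probe set. The one used had 0.01 (95% interval -0.46 to 0.48), and one of like mean signal (68.5 against 68.3) had 1.02, which did not pass either (limma adjusted p = 0.139 in a fit of all probe sets). Another past the filter had 0.43, which did not pass. Foxm1 is dim, with deposited signals of 42.0 to 116 over the 12 arrays.

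The chromosome and spindle genes were high on the same arrays. Top2a, the topoisomerase that untangles sister chromatids, gave 401, 485 and 580.3 among wild type mice, 883, 779 and 614 among TGFB KO mice, 586, 521 and 612 among IFNko TGFB+ mice and 1163, 1460.4 and 1121 among IFNko TGFB1 KO mice. Here the TGFB KO arrays also lay above the wild type arrays. The rise over IFNko TGFB+ was 1.21 ± 0.20 (limma adjusted p = 0.00146). Mki67, the marker of cycling cells that coats mitotic chromosomes, gave 539.99, 799 and 667 on the wild type arrays, 1062, 817 and 614 on those of TGFB KO, 734, 748 and 727 on those of IFNko TGFB+ and 1122, 2091 and 1415 on those of IFNko TGFB1 KO. The IFNko TGFB1 KO arrays differ among themselves by more than those of any other group, and the lowest is still above the other 9. The rise was 1.17 ± 0.25 (0.00621). Nusap1, which bundles spindle microtubules around chromosomes, gave 344, 308 and 389.97 among wild type mice, 308, 409 and 357 among TGFB KO mice, 342, 393 and 339 among IFNko TGFB+ mice and 685, 716 and 678 among IFNko TGFB1 KO mice. The first 9 values occupy a common range and the last 3 lie apart from it. It rose by 0.98 ± 0.16 (0.00138).

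Prc1, the midzone protein whose promoter is shown above, gave 239, 262 and 223 on the wild type arrays, 218, 259 and 222 on those of TGFB KO, 191, 229 and 203 on those of IFNko TGFB+ and 434, 535 and 396 on those of IFNko TGFB1 KO. The 3 low groups overlap. Prc1 rose by 1.05 ± 0.16 (limma adjusted p = 0.000920). The spindle checkpoint genes Mad2l1 (1.10 ± 0.19), Bub1 (1.04 ± 0.24) and Bub1b (0.94 ± 0.18) rose. So did the centromeric histone Cenpa (1.24 ± 0.21), the kinetochore motor Cenpe (0.90 ± 0.29), the microtubule depolymerase Kif2c (1.07 ± 0.19) and the spindle assembly factor Tpx2 (0.98 ± 0.21). All 3 measured components of the chromosomal passenger complex in the module rose, Cdca8 (1.05 ± 0.20), Birc5 (0.91 ± 0.26) and the kinase Aurkb (0.81 ± 0.27). The spindle pole kinase Aurka (0.93 ± 0.22), the motors Kif11 (0.77 ± 0.23) and Kif20a (0.74 ± 0.25) and the kinase Melk (0.52 ± 0.16) complete the 24. The adjusted p-values of these last 14 genes lay at or under 0.0496, that of Kif20a. The remaining mitosis genes not past the threshold were the kinetochore gene Ndc80 (0.15 ± 0.26), the cytokinesis gene Ect2 (0.49 ± 0.30) and the chromosome motor Kif4 (0.45 ± 0.49).

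**Figure D2:**
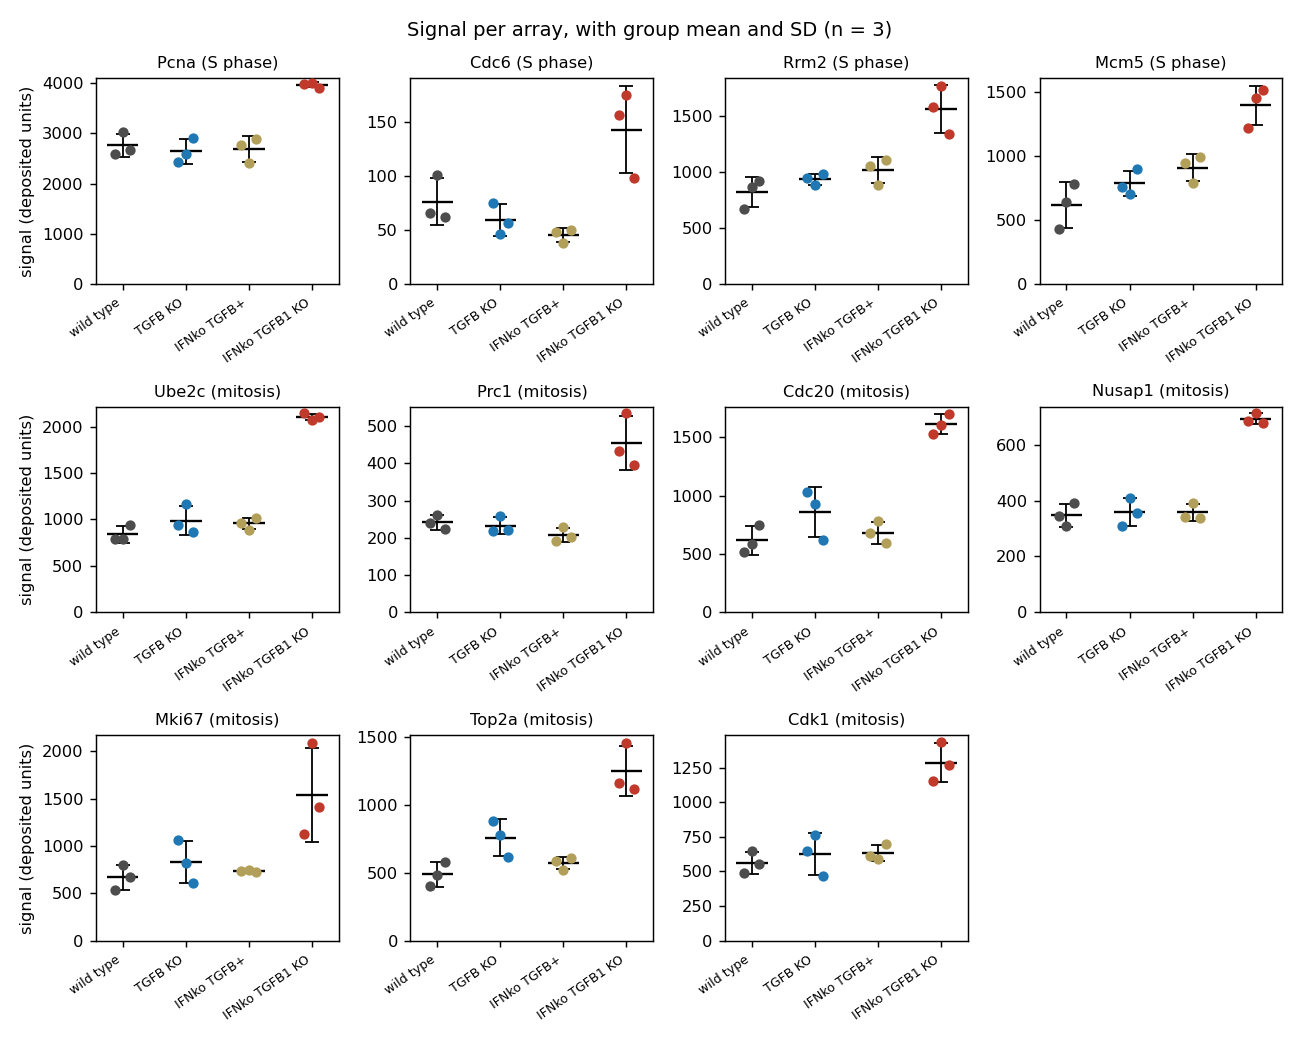
Deposited signal (linear units) of 11 genes on each of the 12 arrays. Each point is an array, the long bar is the group mean and the whiskers are the SD (n = 3). In every panel except Cdc6 the 3 IFNko TGFB1 KO points lie above the other 9. The panel of Cdc6 has 1 wild type array above the lowest IFNko TGFB1 KO array.

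Of the S phase genes, the replication clamp gene Pcna had the smallest p. It gave 2589.8, 3024 and 2665 among wild type mice, 2432, 2589 and 2913 among TGFB KO mice, 2771, 2405 and 2896 among IFNko TGFB+ mice and 3980.4, 4010.5 and 3913 among IFNko TGFB1 KO mice. The last 3 arrays agree closely and stand above the rest. Pcna rose by 0.80 ± 0.15 (1.75-fold, limma adjusted p = 0.00251). Cdc6 gave 66.1, 100.9 and 61.7 on the wild type arrays, 74.9, 46.1 and 56.6 on those of TGFB KO, 47.9, 37.7 and 49.5 on those of IFNko TGFB+ and 156, 175 and 98.1 on those of IFNko TGFB1 KO. IFNko TGFB+ was the lowest group, and the change from it was the largest of the S phase genes (1.16 ± 0.23, 0.00371). Of the MCM helicase subunits, Mcm5 gave 429.9, 639.9 and 784 among wild type mice, 756, 704 and 898 among TGFB KO mice, 943, 789 and 993 among IFNko TGFB+ mice and 1224, 1458 and 1515 among IFNko TGFB1 KO mice. The wild type arrays differ from each other by more than the IFNko TGFB+ arrays do, and the IFNko TGFB1 KO arrays are above both. Mcm5 rose by 0.78 ± 0.21 (0.0166), Mcm3 by 0.70 ± 0.19, Mcm4 by 0.63 ± 0.21 and Mcm7 by 0.60 ± 0.17. Mcm2 (0.72 ± 0.28) and Mcm6 (0.43 ± 0.16) did not pass.

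Of the nucleotide supply genes, Rrm2, the regulated subunit of ribonucleotide reductase, gave 663, 867 and 915 on the wild type arrays, 943, 877 and 977 on those of TGFB KO, 1051, 881 and 1106 on those of IFNko TGFB+ and 1581, 1766 and 1337 on those of IFNko TGFB1 KO. Rrm2 rose by 0.78 ± 0.19 (limma adjusted p = 0.0101), with no overlap between the last 2 groups. Its partner subunit Rrm1 (0.42 ± 0.23), thymidine kinase Tk1 (0.27 ± 0.19) and thymidylate synthase Tyms (-0.01 ± 0.30) did not pass with the probe sets used. A second Rrm1 probe set rose by 0.73 (0.0281 in a fit of all probe sets). Among the genes of the G1 to S transition, the cyclin gene Ccne1 had 0.72 ± 0.25 and the factor E2f1 0.56 ± 0.31, neither past the threshold. The other E cyclin, Ccne2, gave 69.6, 62.1 and 115 among wild type mice, 65.0, 57.3 and 54.6 among TGFB KO mice, 139, 125 and 172 among IFNko TGFB+ mice and 110.2, 70.1 and 97.6 among IFNko TGFB1 KO mice. Here IFNko TGFB+ is the high group, with all 3 arrays above the other 9. Ccne2 fell against it, with a log2 fold change of -0.78 ± 0.22 (limma adjusted p = 0.0239).

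In fits that left out 1 array in turn, 19 of these 32 calls were kept every time, among them Cdc6, Pcna, Ube2c, Cdc20, Cdk1, Mki67, Top2a, Nusap1 and Prc1, and 13 were lost at least once (Ccne2, Mcm3, Mcm4, Mcm5, Mcm7, Rrm2, Plk1, Aurkb, Birc5, Kif11, Kif20a, Cenpe and Melk, with Aurkb and Kif20a lost every time). The number of genes higher was 20 without IFNko TGFB+ 2 (background 9.21%), 27 without IFNko TGFB1 KO 1 (background 11.9%) and 11 with median centring of the arrays (background 7.74%), and Ccne2 was not called on the deposited scaling or without IFNko TGFB+ 1, IFNko TGFB+ 3 or IFNko TGFB1 KO 2.

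IFNko TGFB1 KO was next set against TGFB KO, which asks how 2 groups that both lack Tgfb1 differ by Ifng. This comparison uses the same IFNko TGFB1 KO arrays as the one above, so the 2 are not separate evidence. All 45 genes had a positive log2 fold change, 28 rose and 0 fell (limma, adjusted p under 0.05), where 2.54% of all genes rose and 2.82% fell. At an unadjusted p under 0.05 the module had 39 genes, where 20.7% of all genes reached it. The 28 were 19 of 30 mitosis genes and 9 of 15 S phase genes. Median log2 fold changes were 0.97 for mitosis genes, 0.77 for S phase genes and 0.02 for all genes. The arrays of the 2 groups did not overlap for 39 genes, all higher in IFNko TGFB1 KO, against 13.2% of all genes higher and 9.93% lower.

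The largest difference was that of Ect2, which activates the contractile ring in cytokinesis. It gave 66.3, 68.4 and 96.4 on the wild type arrays, 43.4, 98.9 and 111 on those of TGFB KO, 151, 187 and 123 on those of IFNko TGFB+ and 296, 188 and 225 on those of IFNko TGFB1 KO. Both groups lacking Ifng lay above both groups that keep it. The log2 fold change against TGFB KO was 1.33 ± 0.30 (limma adjusted p = 0.0274), against 0.49 ± 0.30 where IFNko TGFB+ is the control. The smallest p-values belonged to Ube2c (1.25 ± 0.17, 2.37-fold, limma adjusted p = 0.00130) and Ccnb2 (1.18 ± 0.16, 0.00159). Ccnb2 gave 324, 387 and 462 among wild type mice, 391, 450.3 and 393 among TGFB KO mice, 456, 482 and 465 among IFNko TGFB+ mice and 729.6, 969 and 958 among IFNko TGFB1 KO mice. Its 9 lower arrays lie between 324 and 482, and the 3 of IFNko TGFB1 KO above them. Cdk1 (1.17 ± 0.20), Kif20a (1.08 ± 0.25), Kif11 (1.05 ± 0.23), Cdc20 (1.05 ± 0.21) and Cenpa (1.05 ± 0.21) also rose about 2-fold. Cdkn3, just outside the threshold above, passed here (1.04 ± 0.25, 0.0341), while Plk1 (0.95 ± 0.27, 0.0707) and Cdca3 (0.87 ± 0.25, 0.0694) did not. Ndc80 had the smallest change (0.15 ± 0.26).

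Of the nucleotide supply genes, Rrm1, Rrm2 and Tk1 passed in this comparison and Tyms did not (0.77 ± 0.30, limma adjusted p = 0.175). Rrm1 gave 593, 641 and 609 on the wild type arrays, 274, 489 and 558 on those of TGFB KO, 686, 566 and 695 on those of IFNko TGFB+ and 793, 828 and 818 on those of IFNko TGFB1 KO. The 3 TGFB KO arrays are the lowest of the 12 on this deposited scale. Rrm1 was higher in IFNko TGFB1 KO than in TGFB KO by 1.02 ± 0.23 (limma adjusted p = 0.0263), with -0.55 ± 0.23 for TGFB KO against wild type, which did not pass. Its second probe set, at 0.68, did not pass against TGFB KO (0.113 in a fit of all probe sets). Tk1, the salvage kinase for thymidine, gave 628, 862 and 652 among wild type mice, 430.04, 429.9 and 292 among TGFB KO mice, 679.9, 593 and 541 among IFNko TGFB+ mice and 666, 709.6 and 693 among IFNko TGFB1 KO mice. IFNko TGFB1 KO overlaps wild type, and TGFB KO lies below the other 3 groups. The log2 fold change of Tk1 was 0.93 ± 0.19 (0.0175). Mcm5 (0.96 ± 0.21) and Cdc6 (0.90 ± 0.23, 0.0448) passed as well, and so did Rrm2, Mcm4, Mcm6, Mcm7 and Pcna, at 0.86, 0.88, 0.73, 0.80 and 0.72.

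This comparison was the less stable of the 2: 8 of the 28 calls were kept in every fit that left out 1 array (Ube2c, Ccnb2, Cdk1, Nusap1, Prc1, Bub1b, Cdc20 and Cdca8). The count fell to 12 without TGFB KO 1 (background 1.07%), 15 without TGFB KO 2 (1.14%) or TGFB KO 3 (1.68%), 13 without IFNko TGFB1 KO 1 (background 1.36%), 17 with each gene's probe sets averaged (2%), 18 with array weights (1.47%), 2 (background 0.5%) when only the 6 arrays compared were fitted and 1 (background 0.784%) with median centring.

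**Figure D3:**
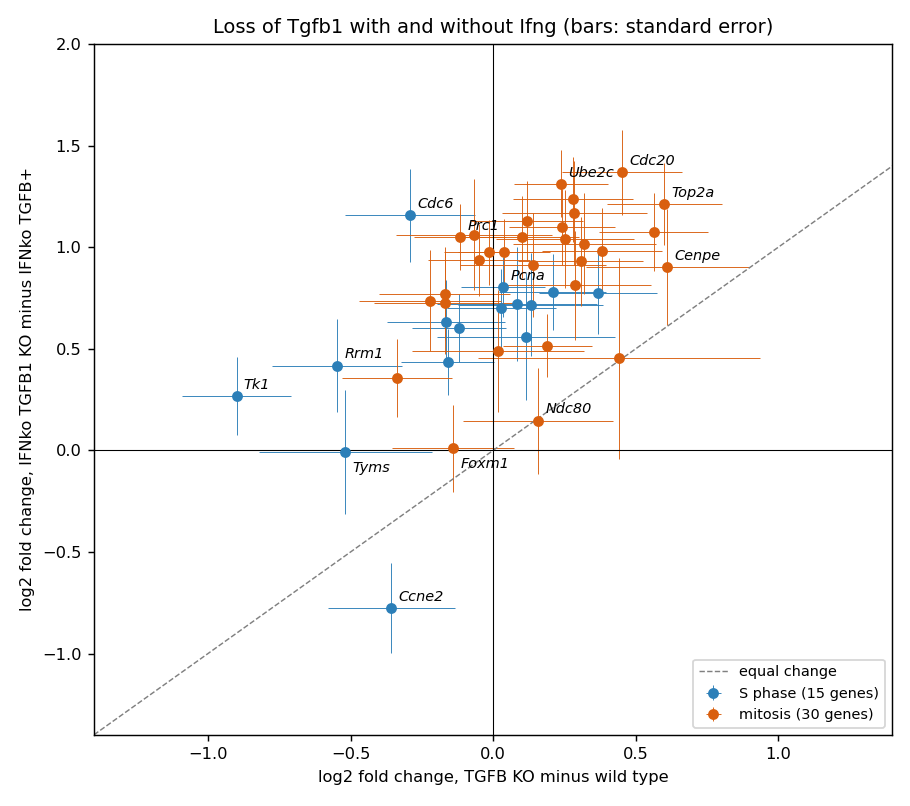
Log2 fold change of each of the 45 genes for loss of Tgfb1 with Ifng present (horizontal axis, TGFB KO minus wild type) and with Ifng absent (vertical axis, IFNko TGFB1 KO minus IFNko TGFB+), with standard errors as bars. Blue points are the 15 S phase genes, orange points the 30 mitosis genes, and the dashed line marks equal change. Of the 45 points 43 lie above the line, the exceptions being Ccne2 and Ndc80.

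With Ifng present, loss of Tgfb1 left the module near its wild type level. In TGFB KO against wild type 1 gene rose and 1 fell (limma, adjusted p under 0.05), where 12.2% of all genes rose and 11.9% fell. The median log2 fold change was 0.17 for mitosis genes, -0.12 for S phase genes and -0.06 for all genes. The gene that fell was Tk1, at -0.90 ± 0.19 (1.87-fold lower, limma adjusted p = 0.00563), and this call was kept in all 6 fits that left out an array. The gene that rose was Top2a (0.60 ± 0.20, 0.0495), and it was lost without wild type 1 or 2 or TGFB KO 1 or 2, with adjusted p up to 0.166. It was also lost with the mean of its 3 probe sets, where its log2 fold change was 0.06. The largest change in the module, that of Cenpe, did not pass (0.61 ± 0.29, 0.150). For Ube2c the 95% interval ran from -0.12 to 0.60, for Cdk1 from -0.31 to 0.55 and for Pcna from -0.29 to 0.36. Arrays did not overlap for 2 genes upward and 3 downward, against 18.4% and 21.9% of all genes.

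The test of the difference between these Tgfb1 effects, with and without Ifng, called 1 gene of the module higher and none lower, where it called 0.243% and 0.627% of all genes. The gene was Prc1, with a difference of 1.17 ± 0.23 log2 units (limma adjusted p = 0.0386), from -0.12 ± 0.16 with Ifng present and 1.05 ± 0.16 with Ifng absent. Prc1 was called in 1 of 12 fits that left out an array (adjusted p 0.0255 to 0.130), and not on the deposited scaling (0.0525), with median centring (0.40), with a pseudocount of 1 (0.0562), without the filter (0.0824), with array weights (0.0506), with sex as a covariate (0.0536) or with the mean of its probe sets (0.289). The largest difference, that of Cdc6, did not pass (1.45 ± 0.32, 0.0754), nor did those of Tk1 (1.17 ± 0.27, 0.0829) and Ube2c (1.07 ± 0.23, 0.0645). The difference was positive for 43 of the 45 genes and lowest for Ccne2 (-0.42 ± 0.31), with medians of 0.82 for mitosis genes, 0.64 for S phase genes and 0.01 for all genes. At an unadjusted p under 0.05 were 25 of the 45, where 11.8% of all genes reached it. Across the 45 genes, the 2 Tgfb1 effects, which share no arrays, had a Pearson correlation of 0.557, given as a description over genes that are not independent replicates (0.732 over all 12755 genes).

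Loss of Ifng alone, IFNko TGFB+ against wild type, called 0 of the 45 genes (limma, adjusted p under 0.05) and 0% of all genes, with 5 module genes at an unadjusted p under 0.05, where 5.09% of all genes reached it. Those were Ect2 (0.86 ± 0.30), Ccne2 (0.74 ± 0.22), Mcm5 (0.55 ± 0.21), Kif2c (0.50 ± 0.19) and Cdc6 (-0.54 ± 0.23), each with an adjusted p of 0.910. Medians were 0.15 for mitosis genes, 0.05 for S phase genes and 0.00 for all genes. Ube2c had 0.17 ± 0.17 and Pcna -0.05 ± 0.15. Arrays did not overlap for 4 genes upward and 1 downward, against 6.47% and 6.67% of all genes.

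Other probe sets of the same genes were examined, since 28 of the 45 genes have more than 1 (98 probe sets in all, 83 past the filter). Of 25 genes with several past the filter, 21 had probe sets of a single sign in the comparison of IFNko TGFB1 KO with IFNko TGFB+. Signs were mixed for Bub1, Cdca3, Cenpa and Kif2c. All of a gene's probe sets past the filter were called for 3 of the 25. For the called genes Top2a (0.16, limma adjusted p = 0.651 in a fit of all probe sets) and Bub1 (-0.24, 0.493) a second probe set did not pass. The same was true of further called genes, among them Kif2c, Tpx2, Cenpa, Cdca3 and Bub1b. In that comparison 10 of the 38 remaining probe sets rose and 0 fell (limma, adjusted over 22924 gene and probe set entries). The share called over all these entries is not given here. The fit with 1 probe set a gene called 12.7% of genes higher and 13.1% lower. Against TGFB KO, 2 of 38 rose and 0 fell, where the fit with 1 probe set a gene called 2.54% of genes higher and 2.82% lower. Signs were mixed for Bub1, Cdc20, Cdca3, E2f1 and Tpx2, and 0 of the 25 genes had all their probe sets called. Some probe sets used above lost their call in the fit of all probe sets. Against IFNko TGFB+ these were Mcm4, Aurkb, Kif20a and Melk (limma adjusted p 0.0514 to 0.0660). Against TGFB KO they were Cdc6, Mcm4, Mki67, Top2a, Tpx2 and Cdkn3 (limma adjusted p 0.0507 to 0.0665). The probe sets used above have the highest mean log2 value of each gene; on the deposited scale another Foxm1 probe set is about as bright.

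Further genes of the same processes, which are not in the module, were counted in the same fits. Among 42 other mitosis genes, 22 rose and 0 fell in IFNko TGFB1 KO against IFNko TGFB+ (all genes 12.7% and 13.1%), with a median log2 fold change of 0.70. The smallest p-values were those of the securin gene Pttg1 (1.38 ± 0.18), the spindle protein gene Tacc3 (1.51 ± 0.21), the condensin subunit gene Smc4 (1.05 ± 0.16) and the microtubule destabiliser gene Stmn1 (1.01 ± 0.17). Against TGFB KO 20 rose and 0 fell (all genes 2.54% and 2.82%). The difference of the Tgfb1 effects was called for Smc4 (1.20 ± 0.23, limma adjusted p = 0.0317) and Tacc3 (1.51 ± 0.30, 0.0408), and for none lower (all genes 0.243% higher and 0.627% lower). Whether these calls hold when an array is left out was not examined. In TGFB KO against wild type 1 rose (Incenp, the scaffold of the passenger complex, 1.02 ± 0.23) and 3 fell, where 12.2% and 11.9% of all genes did, the kinetochore gene Spc25 (-0.96 ± 0.19), the Cdk subunit gene Cks2 (-0.64 ± 0.18) and the spindle gene Ckap2 (-0.64 ± 0.21).

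Of 43 other replication genes, 40 were tested. In IFNko TGFB1 KO against IFNko TGFB+ 10 rose and 0 fell (all genes 12.7% and 13.1%), with a median of 0.40. They were led by the checkpoint mediator Clspn (0.87 ± 0.16), the chromatin assembly subunit Chaf1b (0.80 ± 0.15), the origin kinase activator Dbf4 (0.93 ± 0.18) and the single-strand binding subunit Rpa2 (0.73 ± 0.17). Against TGFB KO 8 rose and 0 fell (all genes 2.54% and 2.82%). TGFB KO against wild type had 0 higher and 3 lower (all genes 12.2% and 11.9%), the primase gene Prim1 (-0.66 ± 0.18), the polymerase delta subunit gene Pold2 (-0.54 ± 0.16) and the dUTPase gene Dut (-0.48 ± 0.15); Mcm10, an initiation factor with the next smallest p, did not pass (-0.79 ± 0.29, 0.0674).

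Of 28 G1 regulators, 27 were tested, and nothing is read from their counts of calls, which are few. The Cdk inhibitor gene Cdkn1c fell with loss of Tgfb1 on both backgrounds, by a log2 fold change of -2.84 ± 0.35 in TGFB KO against wild type (limma adjusted p = 0.000171) and -1.59 ± 0.35 in IFNko TGFB1 KO against IFNko TGFB+ (0.00621). In the first of these 3 others rose (all genes 12.2% higher, 11.9% lower), the retinoblastoma gene Rb1 (1.00 ± 0.26), the cyclin G gene Ccng1 (0.70 ± 0.19) and Myc (1.44 ± 0.47). In the latter 5 rose and 2 fell (all genes 12.7% and 13.1%), among them the pocket protein gene Rbl2 (0.84 ± 0.20), the E2F partner gene Tfdp1 (0.65 ± 0.20) and E2f3 (-0.63 ± 0.19). IFNko TGFB1 KO against TGFB KO had 3 higher and 0 lower (all genes 2.54% and 2.82%), and the difference of effects called 0.

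**Figure D4:**
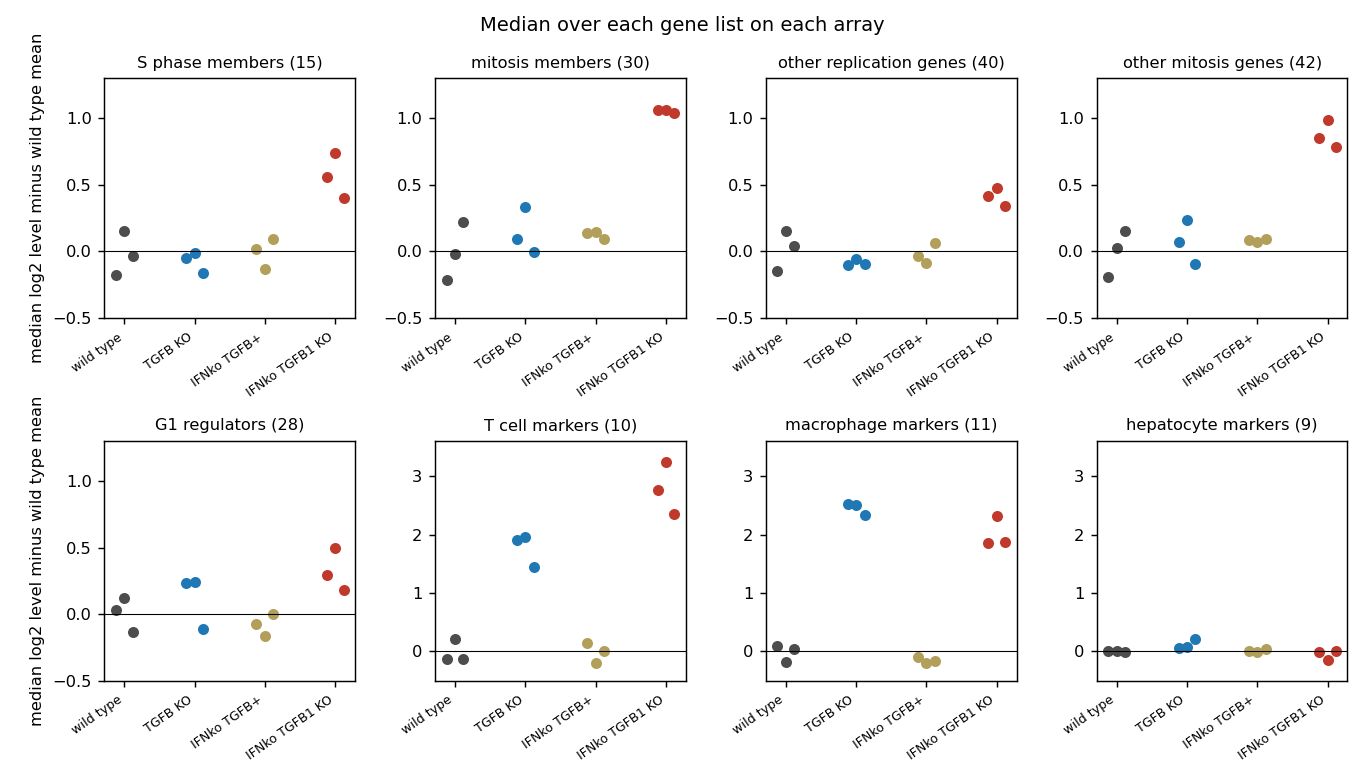
Median over each gene list on each of the 12 arrays, as the log2 difference from the wild type mean (number of genes with a probe set in the panel title; the cell marker panels have a longer axis). Each point is an array. Points of the S phase, mitosis, other replication and other mitosis panels are high in IFNko TGFB1 KO, those of the T cell and macrophage panels are high in both groups lacking Tgfb1.

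Markers of the cells that a liver can hold were read on the same arrays. Of the T cell markers 10 were tested, and all 10 rose in IFNko TGFB1 KO against IFNko TGFB+ (all genes 12.7%). In TGFB KO against wild type 9 rose (12.2%), and in IFNko TGFB1 KO against TGFB KO 5 rose (2.54%). Their summed signal was 186 to 273 in wild type and 922 to 1236 in TGFB KO. It was 158 to 264 in IFNko TGFB+ and 2519 to 4571 in IFNko TGFB1 KO, so it is highest where the module is highest. The summed signals of the B and plasma cell and of the stellate and endothelial markers, given below, were also highest there, but narrowly. On replicates 1 and 3 of IFNko TGFB1 KO the B and plasma cell sums were 761 and 760, against up to 740 in wild type. The stellate and endothelial sums were 16560 and 16606, against up to 16475. By the list median per array, IFNko TGFB1 KO overlapped wild type for the former list and TGFB KO for the latter. The 11 macrophage markers all rose with loss of Tgfb1 on both backgrounds (all genes 12.2% with Ifng present and 12.7% with Ifng absent). They did not pass between the groups lacking Tgfb1 (0 of 11, all genes 2.54% higher and 2.82% lower). Their sums were 7388 to 9432, 46431 to 50666, 7366 to 7457 and 32443 to 45198 in the same order of groups. The 9 hepatocyte markers were bright in all groups, which matches the labelled tissue, with sums of 163908 to 170903, 133872 to 163401, 140748 to 169149 and 102539 to 149397. Of these 3 fell in IFNko TGFB1 KO against IFNko TGFB+ (all genes 13.1%) and 1 fell against TGFB KO (2.82%).

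Among 9 erythroid markers, which mark blood formation in young liver, 1 rose in TGFB KO against wild type (all genes 12.2%). In IFNko TGFB1 KO 0 rose against IFNko TGFB+ (all genes 12.7%) and 0 against TGFB KO (2.54%). The difference of effects called 0 higher (all genes 0.243%), as did IFNko TGFB+ against wild type (0%). Nothing is read from these counts. The erythroid sums were 1290.2 to 1941 in wild type and 2003 to 3911 in TGFB KO. They were 1611 to 1996 in IFNko TGFB+ and 1368 to 3352 in IFNko TGFB1 KO. Of 8 neutrophil markers 5 rose in TGFB KO against wild type (all genes 12.2%) and 4 in IFNko TGFB1 KO against IFNko TGFB+ (12.7%). None was called between the groups lacking Tgfb1 (all genes 2.54% higher and 2.82% lower). Of 7 B and plasma cell markers 1 rose in IFNko TGFB1 KO against each of IFNko TGFB+ (all genes 12.7%) and TGFB KO (2.54%). Their sums were 436 to 740 in wild type, 389 to 688 in TGFB KO and 530 to 654 in IFNko TGFB+. The IFNko TGFB1 KO arrays gave 761, 2162 and 760. Of 12 stellate and endothelial markers 2 rose and 3 fell in TGFB KO against wild type (all genes 12.2% and 11.9%). In IFNko TGFB1 KO 3 rose against IFNko TGFB+ (all genes 12.7%) and 4 against TGFB KO (2.54%). Their sums were 14391 to 16475 in wild type, 10934 to 13715 in TGFB KO and 13802 to 14842 in IFNko TGFB+. The IFNko TGFB1 KO arrays gave 16560, 24139 and 16606. None of 4 cholangiocyte markers was called in any comparison. In no comparison were more than 13.1% of all genes called in a given direction, so nothing is read from this count. No marker was at 0 on any array. The part of any of these cell types in the level of the cell cycle genes was not tested.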

How the data were processed

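Total RNA of 12 livers was extracted with Trizol and labelled with biotin in a one-cycle protocol, per the labels. The deposited values are linear signal intensity for 45101 probe sets; no source used here names the signal software or scaling target, but with 2 percent of the values trimmed at either end every array averages 150, so the authors scaled the arrays before they deposited them. Detection calls were not analysed here.

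Of the probe sets, 34958 carry 1 gene symbol, 932 several and 9211 none, and 34754 symbols were updated by gene identifier with a RefSeq table of GRCm38.p6. The 64 control probe sets were left out. Signals plus 16 were taken to log2 and quantile normalized. Probe sets with a mean under the 40th percentile (5.25 in log2) were left out, and the probe set with the highest mean log2 value stood for each gene, leaving 12755 genes. In R 4.3.3 with limma 3.58.1, group means over the 12 arrays were fitted with lmFit and eBayes (residual degrees of freedom 8, prior 3.44), with 5 contrasts. Two-sided p-values were adjusted by Benjamini-Hochberg over these 12755 genes, and a call is an adjusted p under 0.05. A ± after a log2 fold change gives its standard error, and intervals are 95%. The fit was tested on simulated data. With 3 arrays a group, the number of arrays limits the precision.

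The genes named are the members past the threshold with the largest changes in each contrast, the extremes of each contrast, up to 4 genes with the smallest p per further list in the first 2 Tgfb1 comparisons, and Tgfb1 and Ifng; other members are given by their log2 fold change so that each is accounted for, and Mcm6, Rrm2, Pcna, Cdkn3, Plk1 and Cdca3 in the comparison with TGFB KO and further intervals were chosen after their values were seen. Members, lists and tests were chosen with earlier results of these data known. Promoter windows came from RefSeq (GRCm38.p6). No pairing of the samples was used. Same-numbered arrays of different groups had correlations of their deviations from the group means of -0.077 to 0.343 over 18 pairs, with 4 over 0.1. The numbers thus showed no pairing across all groups. Wild type and TGFB KO arrays had 0.098, 0.065 and 0.343, and this check cannot settle whether those were paired. Alternatives tried were median centring, the deposited scaling, a pseudocount of 1 or 64, a filter at the 60th percentile or none, averaging a gene's probe sets, only the arrays compared, a replicate block, array weights, sex as a covariate, and leaving out each array.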

Additional observations from a re-analysis of the deposited data

Results flagged for a closer look

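The Tgfb1 effect on Prc1 differed between the backgrounds by a test of the difference itself, 1.17 log2 units more with Ifng absent than with it present (limma adjusted p = 0.0386, SE 0.23). All 3 IFNko TGFB1 KO arrays were above the 3 IFNko TGFB+ arrays, and TGFB KO overlapped wild type. The call was kept in 1 of 12 fits that left out an array, the one without IFNko TGFB1 KO 3 (adjusted p 0.0255 to 0.130) and was lost on the deposited scaling, with median centring, a pseudocount of 1, no filter, array weights, sex as a covariate or its probe sets averaged.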

How the results depend on the processing

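No called direction reversed in any setting, and the cause of each change below was not tested. The share of all genes called also changes with the setting. Where that share is not given here or above, a count of module genes cannot be set against it. In IFNko TGFB1 KO against IFNko TGFB+ the 31 genes higher became 11 with median centring, and the 1 gene lower became 0 on the deposited scaling. The medians of 0.63 (S phase) and 0.98 (mitosis) became 0.331 and 0.731 with median centring, and the mitosis median 0.841 with a pseudocount of 64 and 0.69 with the mean of all probe sets. Median centring moved the median of all genes to -0.154, and relative to it the medians were 0.485 and 0.884. These equal the values on the deposited scaling by construction, because centring shifts all genes of an array by the same amount.

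In IFNko TGFB1 KO against TGFB KO the 28 genes higher became 1 with median centring, 17 with the mean of all probe sets, 2 with only the arrays compared and 18 with array weights. The S phase median of 0.77 became 0.665 on the deposited scaling, 0.454 with median centring and 0.618 with the mean of all probe sets; the mitosis median of 0.97 became 0.706 with median centring, 0.799 with a pseudocount of 64 and 0.711 with the mean of all probe sets. For the difference of effects the 1 gene higher became 0 on the deposited scaling, with median centring, a pseudocount of 1, no filter or array weights, 5 with a pseudocount of 64 and 4 with a filter at the 60th percentile, and the medians of 0.64 and 0.82 became 0.305 and 0.404 with median centring. In TGFB KO against wild type the 1 gene higher became 2 on the deposited scaling, with a filter at the 60th percentile or array weights, and 0 with median centring, no filter, the mean of all probe sets or only the arrays compared.

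Further settings, chosen after seeing the data, left out IFNko TGFB1 KO 1 together with another choice. Against IFNko TGFB+ the genes lower were 0 in each, and with median centring the medians were 0.495 and 0.908. Against TGFB KO the genes higher were 10 (deposited scaling), 7 (median centring) and 0 (only the arrays compared), with an S phase median of 0.648 with median centring. The difference of effects called 0 on the deposited scaling and with median centring, with medians of 0.484 and 0.605 under the latter.

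Leaving out 1 array at a time gave 20 to 27 genes higher and 0 to 1 lower against IFNko TGFB+, 12 to 21 higher against TGFB KO, 0 to 2 higher for the difference of effects, and 0 to 2 higher and 1 to 2 lower in TGFB KO against wild type. The medians ranged from 0.554 to 0.681 (S phase) and 0.933 to 1.028 (mitosis) against IFNko TGFB+, from 0.705 to 0.804 and 0.837 to 1.028 against TGFB KO, and from 0.484 to 0.753 and 0.684 to 0.883 for the difference. With the replicate number as a block, 29 genes were higher against IFNko TGFB+, 25 against TGFB KO, and 1 for the difference of effects. The pairing check did not bear out such a block across all groups. Of 65 single results named, 38 kept their call each time an array was left out and 27 lost it at least once. The depth behind a signal and the detection calls were not used here, so no lower limit of detection can be given for dim genes such as Tyms, Foxm1 and Ndc80.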
